A study of Mus musculus with 4 samples.

Results

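The Rab genes encode the largest branch of the small GTPases that direct vesicle traffic. They were taken as every row of the deposited gene table whose symbol is Rab followed by a number, with or without a letter and a further digit, which gave 58 of 22565 genes. The symbol alone chose them, so the rule used no measured value. RNA was profiled in alveolar epithelial type II (AT2) cells, which make lung surfactant, sorted by flow cytometry from 6-month-old mice. There were 2 libraries labelled knockout (KO), named for a conditional deletion of Fbxo45, and 2 wild-type (WT) libraries. The genotype field of KO replicate 1 names an Fbxo45 knockout and that of KO replicate 2 an Fbxo46 knockout, although both are titled KO. The Cre line and the deleted exons were not given in the sources used here. No further treatment is labelled in either group. Whether replicate libraries stem from different mice is unlabelled, so p-values reflect only how these libraries vary, which may be technical.

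A Rab protein cycles between a GDP-bound form held in the cytosol by a GDP dissociation inhibitor and a GTP-bound form on a membrane. Exchange factors load it with GTP, GTPase-activating proteins switch it off, and the loaded form recruits effectors such as tethers, motors and coats. Each Rab marks its own membranes, so the family is commonly read as a map of the secretory and endocytic routes. AT2 cells store surfactant in lamellar bodies, which are lysosome-related organelles secreted at the cell surface, and Rab27 and Rab38 proteins are known for work on organelles of that class.

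The libraries held 9507421 and 7066419 fragments in KO replicates 1 and 2, against 4167113 and 8200167 in WT replicates 1 and 2, as recovered from the deposited estimated counts. The AT2 label was met by its markers, which numbered 10 of 10 above 0 in all 4 libraries and summed to 82294 and 116910 FPKM in KO libraries and 130816 and 124525 FPKM in WT libraries. Sftpc alone made up most of each sum, at 54458 and 87684 FPKM in KO and 101544 and 94984 FPKM in WT. Of the other markers, Napsa, Etv5 and Abca3 were highest in KO replicate 1. Sftpa1, Sftpd, Slc34a2, Lamp3 and Nkx2-1 were lowest there, and Sftpb was lowest in KO replicate 2. FPKM is the number of fragments scaled to transcript length and library size. Fbxo45 had 4.41 and 7.58 FPKM in the KO-labelled pair and 4.60 and 5.91 FPKM in WT, and Fbxo46 at 3.82 and 4.80 FPKM in KO and 4.13 and 3.79 FPKM in WT. Neither gene separated the groups, so every direction below is between libraries labelled KO and libraries labelled WT. KO replicate 1 stood apart: 4 fast skeletal muscle genes (Acta1, Ckm, Myl1, Mylpf) summed to 646 FPKM there and to 5.05 FPKM in KO replicate 2, against 0.159 and 7.02 FPKM in WT. The 3 T and NK cell genes and the macrophage gene Marco were at 0 in all 4 libraries. Summed markers of AT1 cells were 937 and 594 FPKM in KO and 729 and 597 FPKM in WT. Ager and Aqp5 made up most of each AT1 sum. Of the other AT1 markers, Rtkn2 was at 1.82 and 1.49 FPKM in KO and 5.37 and 4.71 FPKM in WT. Pdpn was at 2.41 and 2.32 FPKM in KO and 4.25 and 4.48 FPKM in WT, and Hopx was lowest in KO replicate 1. Summed club cell markers were 1137 and 807 FPKM in KO and 1317 and 895 FPKM in WT. The macrophage list summed to 13.6 and 7.13 FPKM in KO and 7.47 and 7.34 FPKM in WT. The neutrophil, endothelial and fibroblast lists reached at most 6.68, 1.32 and 20.9 FPKM in any library. The log-scale correlation across genes was 0.905 between the KO libraries and 0.971 between the WT libraries. It was 0.928 to 0.949 between a KO and a WT library. The KO libraries thus resembled each other less than any KO library resembled a WT library. In bulk RNA, fewer cells of a type and less RNA per cell cannot be told apart.

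AT2 cells carried RNA for most of the family. Of the 58 Rab genes, 44 averaged at least 1 FPKM over the 4 libraries, 31 at least 10 FPKM, 9 at least 50 FPKM and 2 at least 100 FPKM. Together they made up between 0.293% and 0.332% of each library's summed FPKM, and the 12 highest held 62.9% of that. The sum over the family was 1287 and 1495 FPKM in KO libraries and 1332 and 1309 FPKM in WT libraries. Testing covered the 45 genes with 1 FPKM or more in 2 or more of the 4 libraries, and the 13 others never passed 1.73 FPKM. Among those 13, Rab9b, Rab33a, Rab39 and Rab44 were at 0 in all 4 libraries. A count of 0 allows up to 0.316 and 0.425 CPM (fragments per 1000000 of the library) in KO and 0.720 and 0.366 CPM in WT, for counting error only.

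**Figure D1:**
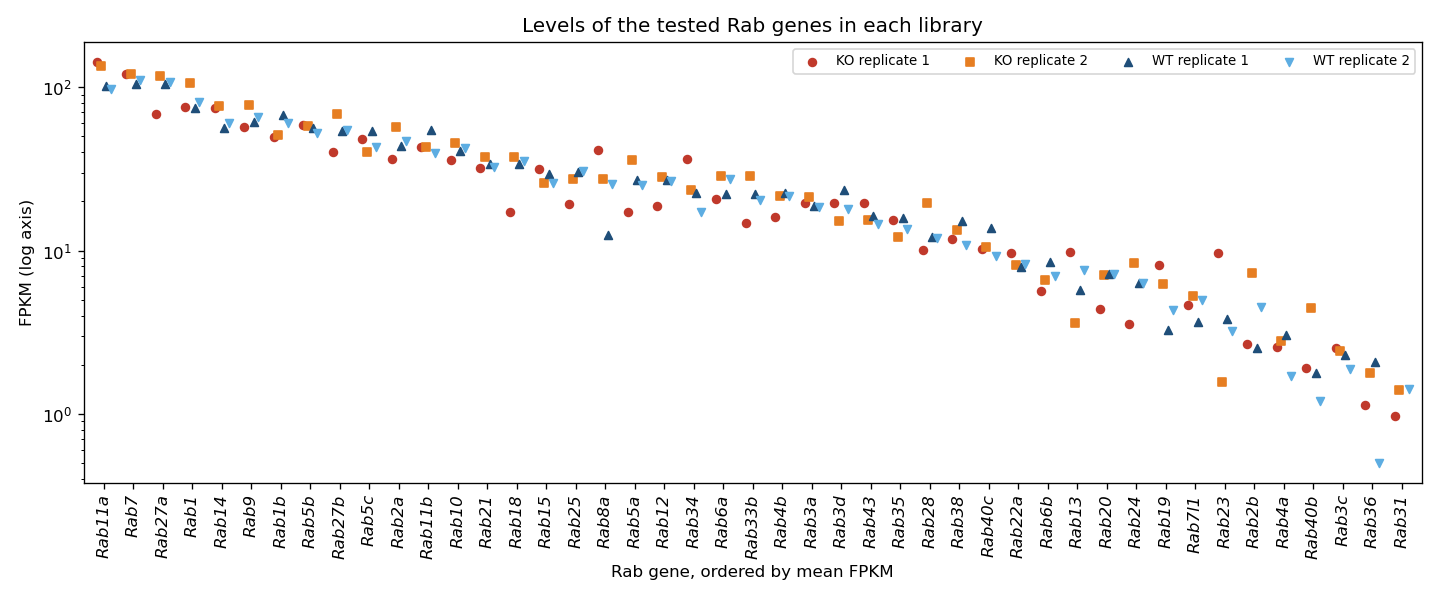
FPKM (log axis) of the 45 tested Rab genes in each of the 4 libraries, ordered by mean FPKM, with 1 symbol per library. Levels run from Rab11a, at 97.0 to 142 FPKM, down to Rab31, whose WT replicate 1 value lies below the axis and is not drawn.

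The 3 highest genes by FPKM serve 3 different stations. Rab11a, the Rab of the recycling endosome (chromosome 9, minus strand, 64715299 to 64737758), was at 142 and 135 FPKM in KO and 102 and 97.0 FPKM in WT. Rab7, which takes late endosomes to lysosomes (chromosome 6, minus strand, 87999106 to 88045270), was at 121 and 119 FPKM in KO and 105 and 111 FPKM in WT. Rab27a, which tethers secretory organelles of lysosomal origin at the cell surface (chromosome 9, plus strand, 73044854 to 73097629), was at 68.1 and 117 FPKM in KO and 104 and 107 FPKM in WT. Coordinates are of GRCm38, the assembly also called mm10. The order of close neighbours was not fixed: of the 44 neighbouring pairs in the ranking of tested genes, 7 had the same order in all 4 libraries. Rab11a and Rab7, first and second, were in that order in 2 of the 4.

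The rank of Rab11a depended on the length scale. Rab11a was 1st by FPKM, 13th by CPM and 11th by CPM per kilobase of its longest coding transcript, which has 2336 bases against 462 in its shortest. Rab27a was 1st by CPM, with 225 and 349 CPM in KO and 330 and 335 CPM in WT. By CPM per kilobase of the longest transcript, Rab7 came 1st and Rab27a 2nd, and 11 of the 12 highest genes by FPKM were among the 12 highest on that scale. The one exception was Rab11b, which was 22nd there. With the median length of the coding transcripts in place of the longest, Rab14 came 1st and Rab11a 2nd. Rab7 was then 3rd, Rab27a 7th and Rab11b 11th.

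Paralogues were unequal in many families. Rab27a exceeded Rab27b by FPKM ratios of 1.70 and 1.71 in KO and 1.93 and 1.96 in WT, and both genes were abundant. Rab38 exceeded its close relative Rab32 in all 4 libraries, with ratios of 28.0 in KO replicate 1 and of 29.6 and 10.9 in WT, and Rab32 was at 0 in KO replicate 2. Rab2a exceeded Rab2b 13.5-fold and 7.77-fold in KO and 17.3-fold and 10.3-fold in WT. Rab1, listed as Rab1a in newer annotation, exceeded Rab1b by 1.52 and 2.08 in KO and by 1.11 and 1.34 in WT, so the KO libraries lay above both WT libraries in this ratio. Rab5b exceeded Rab5c by 1.21 and 1.44 in KO and 1.04 and 1.22 in WT. The Rab3 pair had no fixed order, since Rab3a over Rab3d was 0.998 and 1.40 in KO and 0.798 and 1.03 in WT. Rab11a over Rab11b was 3.32 and 3.14 in KO and 1.87 and 2.46 in WT by FPKM, but 0.756 and 1.06 in KO and 0.669 and 0.856 in WT by CPM. Rab6a stood above Rab6b, Rab4b above Rab4a, Rab8a above Rab8b, Rab22a above Rab31, Rab9 above Rab9b, Rab40c above Rab40b, Rab5b above Rab5a and Rab33b above Rab33a in all 4 libraries. Rab39 was at 0 and Rab39b had 1 fragment in WT replicate 1 and 0 in the other 3 libraries.

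The Rab33 pair, with 1 member at 0 in all 4 libraries, and Rab27a, the most abundant Rab by CPM, were chosen to set levels beside promoter sequence. Rab33b, a Golgi Rab that also works in autophagy, was at 14.6 and 28.4 FPKM in KO and 22.2 and 20.5 FPKM in WT, whereas Rab33a was at 0 throughout. Each sequence below runs from 250 bases before to 50 bases after a transcript start, from RefSeq on GRCm38.p6, all on the plus strand, with CG dinucleotides in capitals. They are the promoters of the Rab33 pair at chr3:51483716-51484015 and chrX:48519035-48519334, and the pair of start sites listed for Rab27a at chr9:73044560-73044859 (upstream) and chr9:73063898-73064197 (downstream).
Rab33b: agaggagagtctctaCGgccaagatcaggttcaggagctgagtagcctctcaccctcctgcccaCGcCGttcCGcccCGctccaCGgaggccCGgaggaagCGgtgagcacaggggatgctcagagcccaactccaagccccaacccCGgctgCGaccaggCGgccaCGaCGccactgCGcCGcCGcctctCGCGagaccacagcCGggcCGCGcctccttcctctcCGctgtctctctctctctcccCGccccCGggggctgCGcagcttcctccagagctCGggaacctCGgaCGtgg
Rab33a: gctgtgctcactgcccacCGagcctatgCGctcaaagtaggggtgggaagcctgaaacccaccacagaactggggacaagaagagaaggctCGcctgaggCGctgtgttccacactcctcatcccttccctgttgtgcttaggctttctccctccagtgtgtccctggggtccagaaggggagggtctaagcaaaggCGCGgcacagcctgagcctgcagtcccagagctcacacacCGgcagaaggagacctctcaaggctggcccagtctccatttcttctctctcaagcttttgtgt
Rab27a upstream: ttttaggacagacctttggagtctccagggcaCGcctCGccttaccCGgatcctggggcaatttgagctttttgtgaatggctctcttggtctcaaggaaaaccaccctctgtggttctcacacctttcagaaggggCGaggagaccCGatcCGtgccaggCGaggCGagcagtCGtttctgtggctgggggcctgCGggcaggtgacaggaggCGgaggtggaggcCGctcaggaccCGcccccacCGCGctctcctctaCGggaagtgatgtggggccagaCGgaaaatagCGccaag
Rab27a downstream: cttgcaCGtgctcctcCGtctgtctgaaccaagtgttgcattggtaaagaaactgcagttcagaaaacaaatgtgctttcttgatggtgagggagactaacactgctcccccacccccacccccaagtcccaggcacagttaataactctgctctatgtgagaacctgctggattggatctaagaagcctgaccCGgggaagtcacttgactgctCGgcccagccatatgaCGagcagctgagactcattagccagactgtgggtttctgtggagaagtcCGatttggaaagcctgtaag
The Rab33b window holds 28 CG, the Rab33a window 7, and the upstream and downstream Rab27a windows 18 and 6. The order of the Rab33 pair did not hold for every pair. Rab9, at a mean of 65.3 FPKM, had 9 CG, whereas Rab9b, at 0 FPKM, had 17. Rab8a and Rab8b, at means of 26.6 and 0.599 FPKM, had 23 and 24 CG. Over all 32851 promoters of this length in the table the median was 7 CG. Of the 58 Rab genes, 48 matched a promoter by symbol, with 60 promoters among them. Among the 39 tested genes with one, the median of each gene's highest CG number was 25, with a range of 9 to 45. Among the 9 genes below the filter it was 10, with a range of 5 to 27, and the 27 belonged to Rab39, which was at 0 FPKM. Some tested genes had several promoters, whereas those below the filter had a single one each, which raises the highest number of tested genes only. Neither median is the same measure as the 7 CG per promoter. The letters CACGTG, the same on both strands, occurred in 6 of the 60 Rab promoters (10%), those of Rab5a, Rab20, Rab21, Rab23, Rab24 and the downstream start of Rab27a, and in 7.15% of all promoters. A match describes these letters in this window and no more.

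No Rab gene passed the test between KO and WT. limma on log2(FPKM + 1), with Benjamini-Hochberg adjustment at 0.05 over all 11055 tested genes, called 0 genes (0%), and 535 genes (4.84%) had an unadjusted p under 0.05. Among the 45 tested Rab genes, 2 had an unadjusted p under 0.05. edgeR's quasi-likelihood test, run on fragments, called 0 of 11705. By edgeR, 372 genes (3.18%) had an unadjusted p under 0.05, of which 1 was a Rab gene, Rab19. DESeq2 called 7 genes of the table and 0 Rab genes. Without KO replicate 1, limma again called 0 Rab genes. On simulated libraries of this size, limma called 18.2% of 66 genes changed 2-fold and 93.9% of 66 changed 4-fold, among 10841 genes tested. The simulation gave all genes the same variability and each gene 1 fixed length, which the real libraries need not share. Its shares may be too high for these data. Differences of under 2-fold were therefore mostly not detectable with 2 libraries a group.

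The family was evenly divided in direction. Of the 45 tested Rab genes, 24 (53.3%) had a higher mean log2(FPKM + 1) in KO than in WT and 21 a lower one, beside 54.1% higher over all tested genes. The median log2 difference was 0.047 for the Rab genes and 0.035 for all tested genes by FPKM, and -0.002 and 0.012 by edgeR on fragments, for the same 45 Rab genes and the genes fitted by both tools. The libraries differed from each other within KO: against the WT mean, KO replicate 1 had a Rab median of -0.056 and KO replicate 2 one of 0.157, beside 0.014 and 0.064 over all tested genes.

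**Figure D2:**
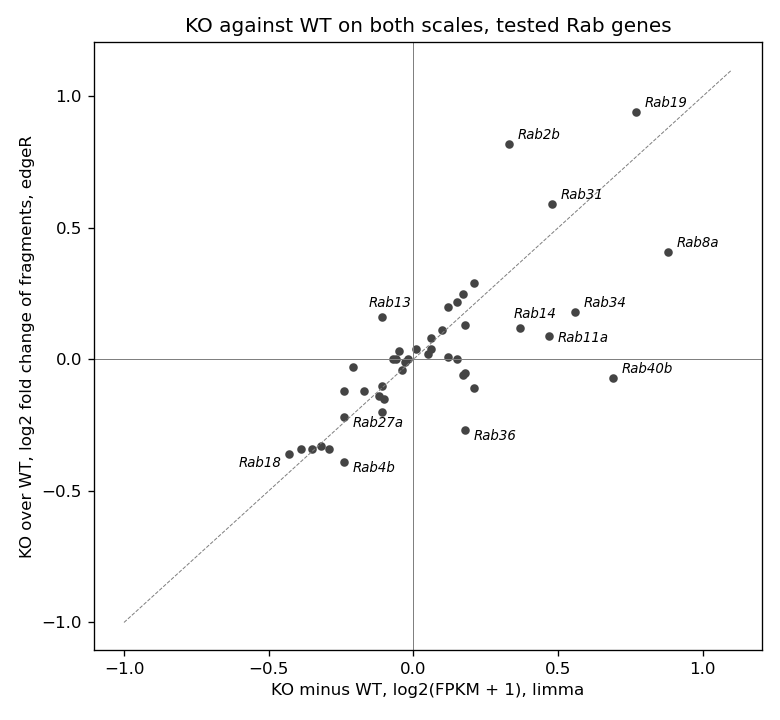
KO minus WT for the 45 tested Rab genes, with the limma difference on log2(FPKM + 1) on the x axis and the edgeR log2 fold change of fragments on the y axis; the dashed line marks equal values. Rab19 lies high on both axes (0.77 and 0.94), whereas Rab11a (0.47 and 0.09) and Rab40b (0.69 and -0.07) lie well below the line.

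Rab19 and Rab11a were the 2 Rab genes with an unadjusted limma p under 0.05. Rab19, a Golgi-associated Rab (chromosome 6, plus strand, 39381175 to 39390380), was at 8.10 and 6.25 FPKM in KO and 3.28 and 4.33 FPKM in WT. Both KO values lay above both WT values, on 142 and 71 fragments in KO and 23 and 60 fragments in WT. Its means were 7.18 ± 1.31 FPKM in KO and 3.80 ± 0.742 FPKM in WT (SD, n = 2 each). KO minus WT was 0.77 on the log2 scale (SE 0.285), with an unadjusted limma p of 0.036 and an adjusted p of 0.948, and edgeR gave 0.94 with an adjusted p of 0.999. Rab11a averaged 138 ± 4.30 FPKM in KO and 99.6 ± 3.62 FPKM in WT (SD, n = 2 each), a log2 difference of 0.47 (SE 0.184, limma adjusted p = 0.948). In CPM the groups of Rab11a overlapped, with 71.2 and 122 CPM in KO and 88.8 and 92.1 CPM in WT, and edgeR gave 0.09 (adjusted p = 0.999).

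Rab genes whose groups did not overlap are counted here beside the shares over all tested genes. The counts were small, and their gaps from those shares were not tested. By FPKM, both KO values lay above both WT values for 10 of the 45 tested Rab genes (22.2%), beside 20.0% of all tested genes. Those 10 were Rab11a, Rab7, Rab14, Rab5b, Rab8a, Rab34, Rab3a, Rab19, Rab40b and Rab3c. Both KO values lay below both WT values for 5 (11.1%), beside 15.1% of all tested genes, and those were Rab1b, Rab25, Rab4b, Rab6b and Rab20. In CPM the counts were 5 above (11.1%, beside 16.4% of all) and 5 below (11.1%, beside 17.1% of all). The 5 below were the same genes on both scales, and of the 10 above by FPKM, 4 were also above in CPM: Rab19, Rab3a, Rab3c and Rab8a. limma and edgeR gave opposite signs for 9 of the 45 Rab genes (20.0%), beside 15.1% of all genes fitted by both.

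The Rab genes of endoplasmic reticulum (ER) and Golgi traffic, 10 of 12 tested, had 5 higher and 5 lower means in KO and 0 calls. Their summed level was 249 and 343 FPKM in KO and 295 and 302 FPKM in WT, so the KO libraries lay on either side of WT. Rab1, which brings ER vesicles to the Golgi, was at 75.0 and 105 FPKM in KO and 75.0 and 81.3 FPKM in WT. Its paralogue Rab1b was at 49.2 and 50.7 FPKM in KO and 67.4 and 60.5 FPKM in WT, and both KO values were the lower ones. Rab1b differed by -0.35 on the log2 scale (SE 0.191, limma adjusted p = 0.948), and edgeR gave -0.34. Rab2a, of the ER to Golgi intermediate compartment, was at 36.1 and 56.8 FPKM in KO and 43.7 and 46.5 FPKM in WT. Rab18, known at lipid droplets and the ER, was at 17.2 and 37.4 FPKM in KO and 34.0 and 35.2 FPKM in WT, so that KO replicate 1 alone was low. Rab6b, a paralogue of the Golgi Rab Rab6a, was at 5.65 and 6.62 FPKM in KO and 8.52 and 6.996 FPKM in WT, with a log2 difference of -0.29 (SE 0.256, limma adjusted p = 0.948). It was -0.19 without KO replicate 1 and -0.17 without WT replicate 1.

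The early endosome and recycling group, 14 of 15 tested, held the largest share of Rab RNA, with 39.6% and 35.2% of summed Rab FPKM in KO and 36.9% and 34.6% in WT. Its sum was 510 and 527 FPKM in KO and 492 and 453 FPKM in WT, with 8 higher and 6 lower means and 0 calls. The same sum in CPM was 1072 and 1181 in KO and 1145 and 1088 in WT, where the groups overlapped. Rab14, which works between the Golgi and endosomes, was at 74.0 and 76.4 FPKM in KO and 56.0 and 60.0 FPKM in WT, a log2 difference of 0.37 (SE 0.186, limma adjusted p = 0.948). In CPM it was at 175 and 264 in KO and 196 and 206 in WT, where KO replicate 1 was lowest and KO replicate 2 highest. The early endosome Rab5 genes had a low member: Rab5a was at 17.2 and 35.8 FPKM in KO and 27.1 and 25.3 FPKM in WT, below Rab5b at 58.6 and 58.0 FPKM in KO and 55.8 and 52.7 FPKM in WT. Rab5c, the remaining paralogue, was at 48.3 and 40.3 FPKM in KO and 53.6 and 43.2 FPKM in WT, with overlapping groups. Rab11b, the second recycling endosome paralogue, was at 42.7 and 43.1 FPKM in KO and 54.5 and 39.5 FPKM in WT. Rab25, the epithelial member of the Rab11 family, was at 19.3 and 27.5 FPKM in KO and 30.3 and 30.7 FPKM in WT, with a log2 difference of -0.39 (SE 0.242, limma adjusted p = 0.948). Without KO replicate 1 the Rab25 difference was -0.14, and without KO replicate 2 it was -0.63. Rab4b, of fast recycling, was at 16.0 and 21.4 FPKM in KO and 22.4 and 21.6 FPKM in WT, and its row shares a locus with Mia and Gm21983.

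The late endosome and lysosome group, 6 of 10 tested, summed to 223 and 239 FPKM in KO and 204 and 208 FPKM in WT, with 4 higher and 2 lower means and 0 calls. In CPM its sum was 387 and 429 in KO and 405 and 402 in WT, where the KO libraries lay on either side of WT. Rab7 averaged 120 ± 1.01 FPKM in KO and 108 ± 4.07 FPKM in WT (SD, n = 2 each), but in CPM it was at 239.6 and 258 in KO and 247 and 249 in WT. Rab9, which returns receptors from late endosomes to the Golgi, was at 56.6 and 77.5 FPKM in KO and 61.2 and 66.0 FPKM in WT. Rab34, known for lysosome positioning and cilium formation, was at 36.5 and 23.6 FPKM in KO and 22.3 and 17.2 FPKM in WT, a log2 difference of 0.56 (SE 0.285, limma adjusted p = 0.948). That was 0.25 without KO replicate 1, against 0.86 without KO replicate 2, and it was 0.38 without WT replicate 2. Its CPM groups overlapped, at 36.2 and 34.0 in KO and 35.8 and 26.5 in WT. Rab20, found on phagosomes and endosomes, was at 4.38 and 7.10 FPKM in KO and 7.22 and 7.23 FPKM in WT.

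Of 5 Rab genes of exocytic and polarised delivery, 4 were tested, with 1 higher and 3 lower means and 0 calls. Rab8b, below the limma filter, was at 0.470 and 1.57 FPKM in KO and 3.95e-05 and 0.352 FPKM in WT. It had 26 and 59 fragments in KO and 0 and 16 in WT, and edgeR gave 2.27 (adjusted p = 0.999). Rab8a, which delivers vesicles to the plasma membrane and the cilium, was the one higher of the 4 tested, at 41.4 and 27.2 FPKM in KO and 12.4 and 25.6 FPKM in WT. Its means of 34.3 ± 10.0 FPKM in KO and 19.0 ± 9.35 FPKM in WT (SD, n = 2 each) gave a log2 difference of 0.88 (SE 0.389, limma adjusted p = 0.948). It was 0.38 without WT replicate 1, 0.58 without KO replicate 1 and 1.37 without WT replicate 2. In CPM it was at 57.4 and 42.3 in KO and 36.0 and 38.8 in WT, and edgeR gave 0.41 (adjusted p = 0.999). Rab10, known for carrying glucose transporter vesicles and basolateral cargo, was at 35.9 and 45.6 FPKM in KO and 40.7 and 42.6 FPKM in WT. The cilium and other group, 4 of 4 tested, summed to 31.9 and 35.9 FPKM in KO and 31.4 and 25.6 FPKM in WT. In CPM its sum was 55.6 and 65.7 in KO and 61.0 and 55.5 in WT, where the groups overlapped. Rab23, an inhibitor of Hedgehog signalling, was at 9.61 and 1.56 FPKM in KO and 3.83 and 3.21 FPKM in WT, so that KO replicate 1 was highest and KO replicate 2 lowest.

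**Figure D3:**
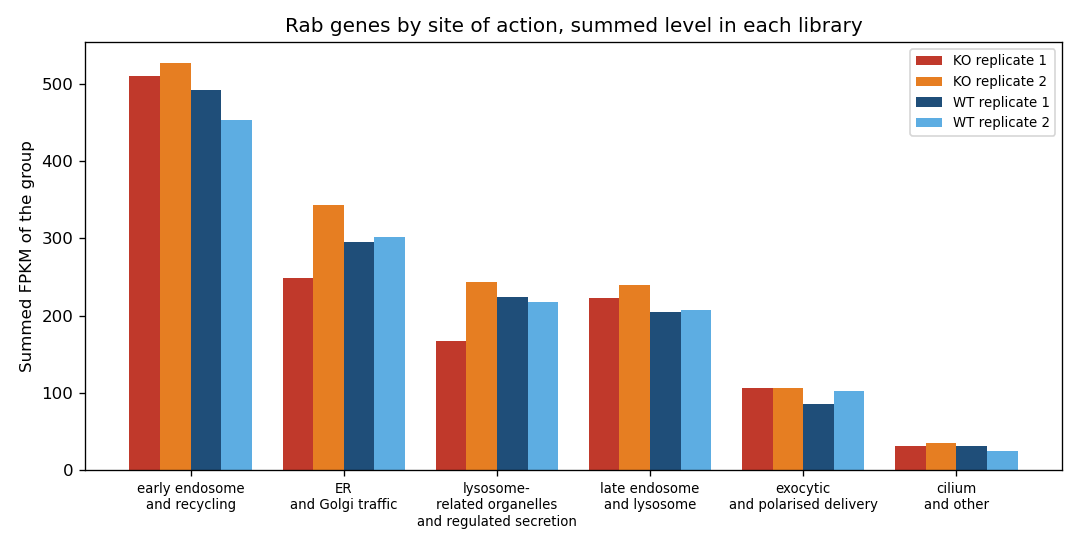
Summed FPKM of the Rab genes of each group in each library, bars starting at 0, KO libraries left of WT libraries. The early endosome and recycling group is the highest in every library, at 510 and 527 FPKM in KO and 492 and 453 FPKM in WT.

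Lysosome-related organelles and regulated secretion are the routes closest to the lamellar body, and 7 of the 12 genes assigned to them were tested. They summed to 167 and 244 FPKM in KO and 224 and 218 FPKM in WT, with 3 higher and 4 lower means and 0 calls. The sum was lowest in KO replicate 1. Rab27a and Rab27b made up most of this sum and were both lowest there, so the low sum is no separate observation. The other tested genes of the group had their lowest FPKM in another library. Rab27b was at 40.0 and 68.6 FPKM in KO and 54.1 and 54.7 FPKM in WT, the same pattern as Rab27a, with KO replicate 1 below both WT libraries and KO replicate 2 above both. Rab27a averaged 92.8 ± 34.9 FPKM in KO and 106 ± 2.01 FPKM in WT (SD, n = 2 each), with a log2 difference of -0.24 (SE 0.290, limma adjusted p = 0.962). Without KO replicate 1 the Rab27a difference was 0.15, and without KO replicate 2 it was -0.63. Rab27b gave -0.05 (SE 0.289, limma adjusted p = 0.988), with 0.33 without KO replicate 1 and -0.43 without KO replicate 2. Rab38, whose loss enlarges lamellar bodies in the mouse and rat, was at 11.7 and 13.4 FPKM in KO and 15.2 and 10.8 FPKM in WT (chromosome 7, 88430273 to 88491572, plus strand), so the groups overlapped. It differed by -0.03 on the log2 scale (SE 0.260, limma adjusted p = 0.992). Rab32, which shares the delivery of melanosome enzymes with Rab38, was at 0.419 and 0 FPKM in KO and 0.514 and 0.991 FPKM in WT and was not tested.

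Secretory granule Rabs of other tissues were also read in AT2 cells. Rab3d, found on granules of exocrine cells, was at 19.6 and 15.2 FPKM in KO and 23.5 and 18.0 FPKM in WT, with a log2 difference of -0.24 (SE 0.252, limma adjusted p = 0.954). The Rab3d difference was -0.055 without WT replicate 1, -0.066 without KO replicate 2, -0.41 without KO replicate 1 and -0.43 without WT replicate 2. Rab3a, best known from synaptic vesicles, was at 19.6 and 21.2 FPKM in KO and 18.8 and 18.5 FPKM in WT, a log2 difference of 0.12 (SE 0.206, limma adjusted p = 0.970), which was 0.069 without KO replicate 2. Its row shares a locus with Mpv17l2. Rab3c, another Rab of regulated secretion, was at 2.52 and 2.44 FPKM in KO and 2.28 and 1.896 FPKM in WT. Rab7l1, named Rab29 in newer annotation and known to recruit the kinase Lrrk2 to membranes, was at 4.66 and 5.24 FPKM in KO and 3.66 and 5.001 FPKM in WT. Rab3b had 0.0781 and 0 FPKM in KO and 0.807 and 0.365 FPKM in WT, on at most 3 fragments. Rab26, of secretory granules, had 0.171 and 0.444 FPKM in KO and 0.358 and 0.272 FPKM in WT. Rab37, of mast cell granules, had 2 fragments in WT replicate 1 and 0 in the other 3 libraries, and Rab44, an unusually large Rab of immune cells, was at 0 in all 4.

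The KO libraries often lay on opposite sides of both WT libraries. By FPKM, KO replicate 1 was below and KO replicate 2 above both WT values for 13 of the 45 tested Rab genes (28.9%), beside 17.3% of all tested genes. These were Rab27a, Rab9, Rab27b, Rab2a, Rab10, Rab21, Rab18, Rab5a, Rab12, Rab6a, Rab33b, Rab28 and Rab24. The opposite arrangement held for 3 (6.67%), beside 13.0% of all. In CPM the counts were 14 (31.1%, beside 16.0% of all) and 6 (13.3%, beside 17.1% of all), and 10 tested genes were split with KO replicate 1 low on both scales. The muscle genes named above were high in the same library, and their part in these values was not tested.

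Genes with this split had RNA of lower GC content. The median GC of coding transcripts was 44.6% for the 14 split genes in CPM and 53.5% for the other 31 tested Rab genes. Over the table, the split was found in 29.6% of the 3659 genes of the lowest GC class (31.9% to 48.1% GC), in 11.4% of the middle class and in 256 of the 3658 genes of the highest (54.0% to 74.7% GC). The Rab counts in those classes were 10 of 15, 2 of 13 and 2 of 17. Across genes, which are not independent replicates, the difference KO replicate 1 minus KO replicate 2 in CPM had a Spearman correlation with GC of 0.31 over the 45 Rab genes and 0.29 over 10975 genes. The difference between the WT libraries had one too, at 0.47 over the 45 Rab genes and 0.23 over the 10975. The limma difference KO minus WT had -0.28 with GC over both sets. All of these share the same 4 libraries. With each library corrected for a trend on GC and length, the number of Rab genes called was again 0.

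Of the 10 genes above WT by FPKM, Rab11a, Rab7, Rab14, Rab5b, Rab34 and Rab40b overlapped WT in CPM. The number of fragments behind 1 FPKM differed between libraries by 1.83-fold for Rab11a, 1.58-fold for Rab34 and 4.38-fold for Rab40b, but by 1.16-fold for Rab7, 1.49-fold for Rab14 and 1.09-fold for Rab5b. CPM per FPKM, set to 1000 for the median tested gene of a library, differed by over 1.5-fold between libraries for 6 of the 44 Rab genes with at least 10 fragments in each (13.6%), beside 19.9% of 10220 genes. For Rab11a it was 177 and 323 in KO and 298 and 323 in WT, with KO replicate 1 low. For Rab40b, a Rab with a cullin-binding SOCS box, it was lowest in KO replicate 2, at 159. Rab40b was at 1.91 and 4.46 FPKM in KO and 1.77 and 1.20 FPKM in WT, but at 3.68 and 1.98 CPM in KO and 3.60 and 2.44 CPM in WT. Its limma difference of 0.69 became 0.24 when KO replicate 2 was left out and 1.15 when KO replicate 1 was. Rab23 (3.32-fold), Rab36 (2.22-fold) and Rab8a (2.05-fold) were past 1.5-fold too. For Rab8a the highest value, 998, was in WT replicate 1, the library with its lowest FPKM.

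**Figure D4:**
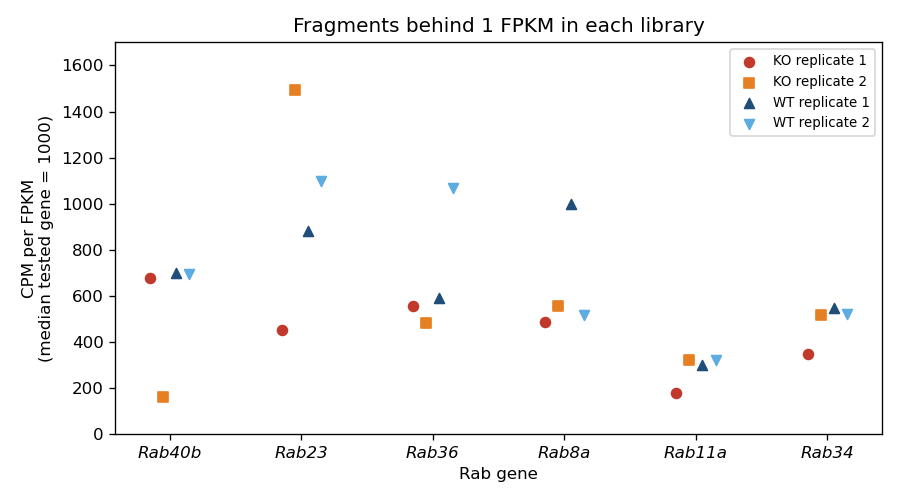
CPM per FPKM in each library, with the median tested gene of a library at 1000, for the 6 Rab genes with over 1.5-fold spread. Rab40b is low in KO replicate 2 (159), Rab11a in KO replicate 1 (177), and Rab8a is high in WT replicate 1 (998).

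Some Rab values rest on shared or near-zero estimates. The rows of 12 Rab genes (Rab1, Rab2b, Rab3a, Rab4a, Rab4b, Rab5a, Rab6a, Rab7, Rab15, Rab26, Rab37 and Rab40c) are placed in a locus together with further genes, up to 74 of them for Rab4a. How fragments were divided within a locus was not given in the sources used here. Rab31 and Rab8b are listed at 8.74e-05 and 3.95e-05 FPKM in WT replicate 1, against 0.975 and 1.39 FPKM in KO and 1.42 FPKM in WT replicate 2 for Rab31. For Rab8b the other values were 0.470 and 1.57 FPKM in KO and 0.352 FPKM in WT replicate 2.

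The proteins that act on Rabs were read from 4 lists. None of their members passed limma or edgeR after adjustment. The rows of Rabgap1, Evi5, Tbc1d24, Golga2, Rgp1 and Smcr8, named among them, share a locus with other genes. Of 36 tested GTPase-activating proteins, 22 had higher and 14 lower means in KO, with a median log2 difference of 0.06. Rabgap1, of this class, was at 45.8 and 29.7 FPKM in KO and 19.4 and 20.0 FPKM in WT, a log2 difference of 0.87 (SE 0.264, limma adjusted p = 0.948). Evi5 was at 27.8 and 39.0 FPKM in KO and 20.8 and 20.9 FPKM in WT, and Tbc1d24, a TBC-domain protein, at 4.14 and 6.02 FPKM in KO and 6.95 and 7.31 FPKM in WT. These 3 were picked by their p-values, so their groups had little room to overlap by FPKM; over the 36 tested, both KO values lay above both WT values for 7 and below for 8, beside 20.0% and 15.1% of all tested genes. In CPM, Rabgap1 was at 104 and 141 in KO and 98.1 and 99.9 in WT, Tbc1d24 at 38.3 and 52.1 in KO and 63.4 and 66.0 in WT, and Evi5 at 85.3 and 116 in KO and 68.6 and 85.4 in WT, where Evi5 alone overlapped.

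Effectors had 38 higher and 13 lower means of 51 tested, beside 54.1% higher over all tested genes. Their median was 0.17 by limma and 0.07 by edgeR, beside 0.035 and 0.012 over all genes. By FPKM, both KO values lay above both WT values for 12 of the 51 and below for 6, beside 20.0% and 15.1% of all tested genes. The gaps from these shares were not tested. Lrrk2, the kinase that phosphorylates several Rabs, was at 447 and 224 FPKM in KO and 161 and 200 FPKM in WT, a log2 difference of 0.81 (SE 0.355, limma adjusted p = 0.948) and an edgeR value of 0.31. Golga2, a Golgi matrix protein, was at 29.7 and 24.7 FPKM in KO and 19.2 and 17.9 FPKM in WT, but edgeR gave -0.02. Sytl2, a Rab27 effector in secretory granule docking, was at 33.2 and 25.2 FPKM in KO and 21.3 and 22.7 FPKM in WT. Both scales gave similar values, with 0.38 by limma and 0.41 by edgeR.

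Exchange factors had 23 higher and 20 lower means of 43 tested, with a median of 0.01. Trappc5, a core subunit of the TRAPP complexes that activate Rab1 and Rab11, was at 2.85 and 1.65 FPKM in KO and 6.28 and 5.95 FPKM in WT. Both KO values were below both WT values on each scale, with 8.73 and 4.53 CPM in KO and 18.0 and 17.1 CPM in WT. The genes named from every list were picked by their p-values, so their groups had little room to overlap by FPKM. Over the 43 tested, both KO values lay above both WT values for 11 and below for 2. The shares over all tested genes were 20.0% and 15.1%. The log2 difference of Trappc5 was -1.15 (SE 0.313), with an unadjusted limma p of 0.0105 and an adjusted p of 0.948. For Trappc5, edgeR gave -1.40 with an adjusted p of 0.999. Rgp1, a subunit of a Rab6 exchange factor, was at 12.8 and 12.8 FPKM in KO and 37.7 and 18.4 FPKM in WT, but at 66.1 and 63.4 CPM in KO and 71.99 and 60.5 CPM in WT. Smcr8, a partner of the C9orf72 protein, was at 18.6 and 15.7 FPKM in KO and 13.3 and 12.9 FPKM in WT.

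The prenylation and GDP dissociation inhibitor list had 6 higher and 3 lower means of 9 tested, with a median of 0.12. By FPKM, both KO values lay above both WT values for 1 of the 9 and below for 2, beside 20.0% and 15.1% of all tested genes. Rabac1, the prenylated Rab acceptor, was at 29.3 and 94.8 FPKM in KO and 126 and 116 FPKM in WT. KO replicate 1 was the low library, and KO minus WT was -1.18 on the log2 scale (SE 0.518, limma adjusted p = 0.948). Rabif, a guanine nucleotide release protein that stabilises Rab10, was at 9.83 and 6.82 FPKM in KO and 10.1 and 13.8 FPKM in WT. Rabggtb, the catalytic subunit that prenylates Rabs, was at 6.78 and 6.55 FPKM in KO and 5.52 and 4.41 FPKM in WT, a log2 difference of 0.37 (SE 0.260, limma adjusted p = 0.948).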

How the data were processed

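Per the submitters' processing notes, the tools were Cufflinks, Cuffdiff 2.2.1, HISAT2 2.0.4 and cutadapt 1.9.3, on mm10; their settings were not given in the sources used here. Per the labels, 1 µg of RNA was depleted of ribosomal RNA and sequenced for 150 cycles from stranded libraries. The authors deposited FPKM and estimated counts per gene and library. Each library's counts are multiples of a constant, and division by it made 90.9% to 92.6% of positive values whole within 0.05. These fragments were rounded for the count tests, and CPM was computed from them.

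The members, gene lists and tests were chosen with earlier results of these data known. limma 3.58.1 (R 4.3.3; trend) was run on log2(FPKM + 1), KO minus WT, for genes at 1 FPKM in at least 2 of 4 libraries, which understates changes of low genes. edgeR 4.0.16 (TMM) and DESeq2 1.42.0 were alternatives. The main unit stayed FPKM although counts were also held. Named genes were the 12 highest Rab genes, those at an unadjusted p under 0.05, the secretion list, paralogues, and per machinery list the 3 with the smallest p; the other Rab genes named were chosen after their values were seen. Coordinates, GC and lengths are from GENCODE M21, promoters from RefSeq. The tests were checked on simulated data. Intervals and floors cover counting error only. Equal replicate numbers did not pair the libraries.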

Additional observations from a re-analysis of the deposited data

How the results depend on the processing

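Over 14 alternative settings, 0 Rab genes were called in each, and 14 of the 25 named Rab genes kept their direction in all that gave a value. The 25 include every tested Rab gene whose groups did not overlap by FPKM. Such a gene cannot change direction when 1 library is left out, so its stability in those settings was fixed by the choice. Genes called over the table were 0, but 7 by DESeq2 and 17 with no filter on low values. Leaving out 1 library gave 0 to 134 genes, the 134 without KO replicate 2 and 3 without WT replicate 2; a lone sample was then assumed to vary like the other group. The Rab median, 0.047, was -0.001 by edgeR over the 46 Rab genes that it tested, 0.102 with equal library totals, and -0.056 to 0.157 with 1 library left out. Directions turned by edgeR were Rab7 (-0.0021), Rab27b (0.034), Rab7l1 (-0.061) and Rab40b (-0.07). DESeq2 turned Rab27b (0.038), Rab7l1 (-0.05) and Rab40b (-0.077). Equal totals turned Rab27b (0.0041) and Rab38 (0.025), median ratio scaling Rab2a (-0.031), and a correction for GC and length, added after seeing the data, Rab9 (-0.033) and Rab2a (-0.12). With 1 library left out, ranges spanned 0 for Rab27a (-0.63 to 0.15), Rab27b (-0.43 to 0.33), Rab38 (-0.26 to 0.21), Rab1 (-0.056 to 0.43), Rab9 (-0.16 to 0.28), Rab5c (-0.28 to 0.032), Rab2a (-0.31 to 0.33), Rab11b (-0.34 to 0.12) and Rab7l1 (-0.014 to 0.35). The cause was not tested. Equal replicate numbers gave a correlation of deviations of 0.0257 and did not pair the libraries; with a replicate block 0 genes and 0 Rab genes were called. With 2 libraries a group, the depth of WT replicate 1 limits genes of few fragments.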
